A study of Mus musculus with 8 samples.

Results

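The genes described here are 39 transcripts that mark T cells and natural killer (NK) cells, out of 21859 genes counted in mouse aorta. They were chosen by gene symbol, and all 39 were in the files. They fall into 7 roles: the T cell receptor (TCR) complex with 4 genes, the coreceptors with 3, adhesion, costimulation and other surface molecules with 7, proximal signalling with 7, cytokine receptors with 3, transcription factors with 7, and cytotoxicity and NK receptors with 8. Whole aortas were taken from 4 ApoE-/- mice, which lack apolipoprotein E and are prone to atherosclerosis, and from 4 wild-type (WT) mice. All 8 mice were male, 40 weeks old and fed a normal chow diet. The knockout is a germline one, and the study's methods give C57BL/6 for both the ApoE-/- line and the WT mice. Each aorta gave 1 library of stranded, ribodepleted total RNA, no cells were sorted, and the comparison asks which transcripts of these lymphocytes differed between atherosclerosis-prone and WT aorta. In such bulk samples, fewer cells of a type and less RNA per cell cannot be told apart.

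T cells recognise antigen through a receptor whose signal is carried by the CD3 chains, with CD4 or CD8 as coreceptor, and pass it on through the kinases *Lck* and *Zap70* and the adaptor *Lat*. NK cells lack this receptor but share with cytotoxic T cells the granule proteins perforin and the granzymes. In arteries, T cells live mainly in the adventitia, and they gather in atherosclerotic plaques beside macrophages.

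Read pairs counted on genes numbered 23240995 to 23940156 in the ApoE-/- libraries and 18375898 to 21664598 in the WT libraries. Pairs not assigned to a single gene made up 64.4% to 67.7% of the ApoE-/- libraries and 69.8% to 72.1% of the WT libraries, without overlap, and the part of this difference in the results was not tested. The 39 genes together took 1958, 1099, 1579 and 1577 pairs in the ApoE-/- libraries 1 to 4 and 922, 922, 644 and 800 pairs in the WT libraries 1 to 4, or 0.0035% to 0.0082% of the pairs on genes. Levels are given as CPM, the counts scaled to library size after TMM normalization, and 3 pairs, taken as the limit of detection, corresponded to 0.122 to 0.166 CPM. *Apoe*, the disrupted gene, lay at 14.7 to 36.3 CPM in the ApoE-/- aortas and 536 to 857 CPM in the WT aortas. ApoE-/- library 1 stood apart from the other ApoE-/- libraries, with which its log2 CPM correlated across genes at 0.85 to 0.903, where the other 3 pairs of ApoE-/- libraries reached 0.951 to 0.971. With the WT libraries, ApoE-/- library 1 correlated at 0.897 to 0.947. Its 10 sympathetic neuron genes summed to 5703 CPM, against 47.9 to 436 CPM in the other ApoE-/- aortas and 295 to 1006 CPM in the WT aortas. Its 8 smooth muscle genes summed to 5263 CPM, against 13000 to 21191 CPM in the other ApoE-/- aortas and 11605 to 21591 CPM in the WT aortas.

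T and NK transcripts were rare in both genotypes and most had higher values in ApoE-/- aortas. Their sum was 79.5, 48.1, 68.8 and 68.4 CPM in ApoE-/- aortas and 42.3, 43.2, 35.7 and 38.3 CPM in WT aortas, without overlap. Without *Gata3* alone the sums did not overlap, at 44.9 to 66.4 CPM against 31.5 to 37.5 CPM. Without both *Il7r* and *Gata3* the sums overlapped, at 35.3 to 51.4 CPM against 29.8 to 35.5 CPM. When all 39 genes were fitted without a filter on low counts, 35 had a positive log2 fold change of ApoE-/- over WT and 4 a negative one (*Cd27*, *Foxp3*, *Trat1* and *Ifng*), where 57.3% of all 19606 genes so fitted were positive. The median of the 39 was 0.65 on the log2 scale, beside 0.05 for all genes. Without ApoE-/- replicate 1, 31 of the 39 were positive and 8 negative, with a median of 0.57, where 52% of all genes were positive.

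None of the 39 genes passed an adjusted p of 0.05 in edgeR's quasi-likelihood test, which called 0.371% of the 15077 genes tested as higher and 0.0929% as lower in ApoE-/- aortas. In the fit of all 39 without a filter, none passed either, where 0.265% of genes were called higher. An unadjusted p under 0.05 was reached by 11 of the 39, all higher, beside 6.33% of all genes in that direction, and by 8 without ApoE-/- replicate 1, beside 8.63%. In 6 genes all 4 ApoE-/- values lay above all 4 WT values, namely *Themis*, *Il7r*, *Il2rb*, *Nkg7*, *Klrd1* and *Gzma*, and in none below, where 4.73% of all genes were separated upwards. DESeq2, the tool named by the study, called 1 of the 28 genes that passed the filter, *Il7r*, beside 3.12% of all genes called higher and 1.69% called lower. The filter asked for about 10 pairs in 4 libraries, and 17 of these 28 genes met it in all 4 WT libraries. The others passed with the help of 1 or more ApoE-/- libraries, 7 of them with no more than 2 WT libraries over the minimum, so the counts over the 28 are given as description. Of them 26 had positive and 2 negative fitted values (58% of all tested genes were positive), 9 had an unadjusted p under 0.05, all higher (7.19% of all tested genes were higher and 4.17% lower by this rule), and 5 were separated upwards and none downwards (5.41% and 3.3% of all tested genes). Without ApoE-/- replicate 1, 6 of 28 tested genes were separated upwards, where 9.87% of all tested genes were.

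**Figure D1:**
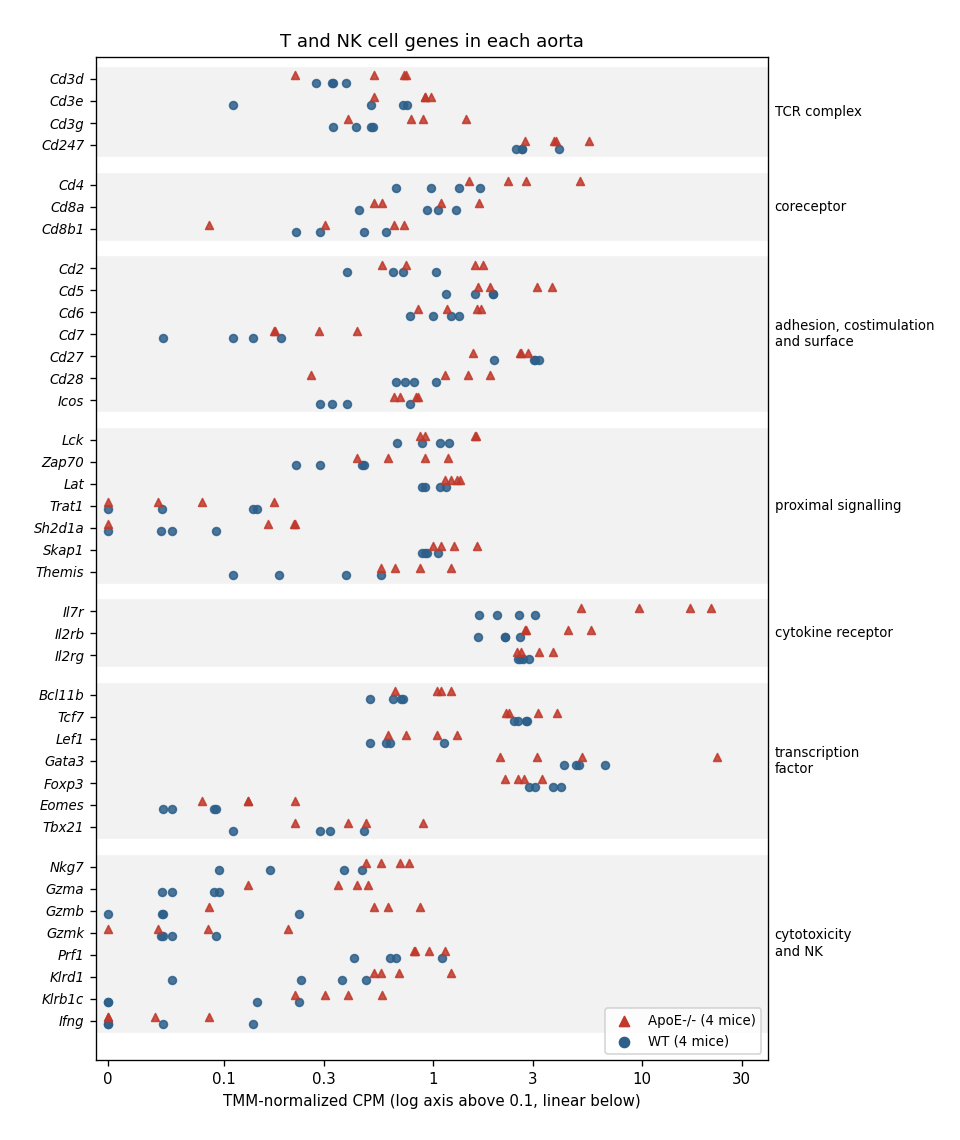
Level of each of the 39 T and NK cell genes in each aorta, in TMM-normalized CPM on an axis that is logarithmic above 0.1 and linear below, grouped by role. Each point is 1 mouse (triangles ApoE-/-, circles WT), and Il7r and Gata3 in ApoE-/- aortas reach 21.3 and 22.9 CPM, while most other genes lie below 5 CPM.

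**Figure D2:**
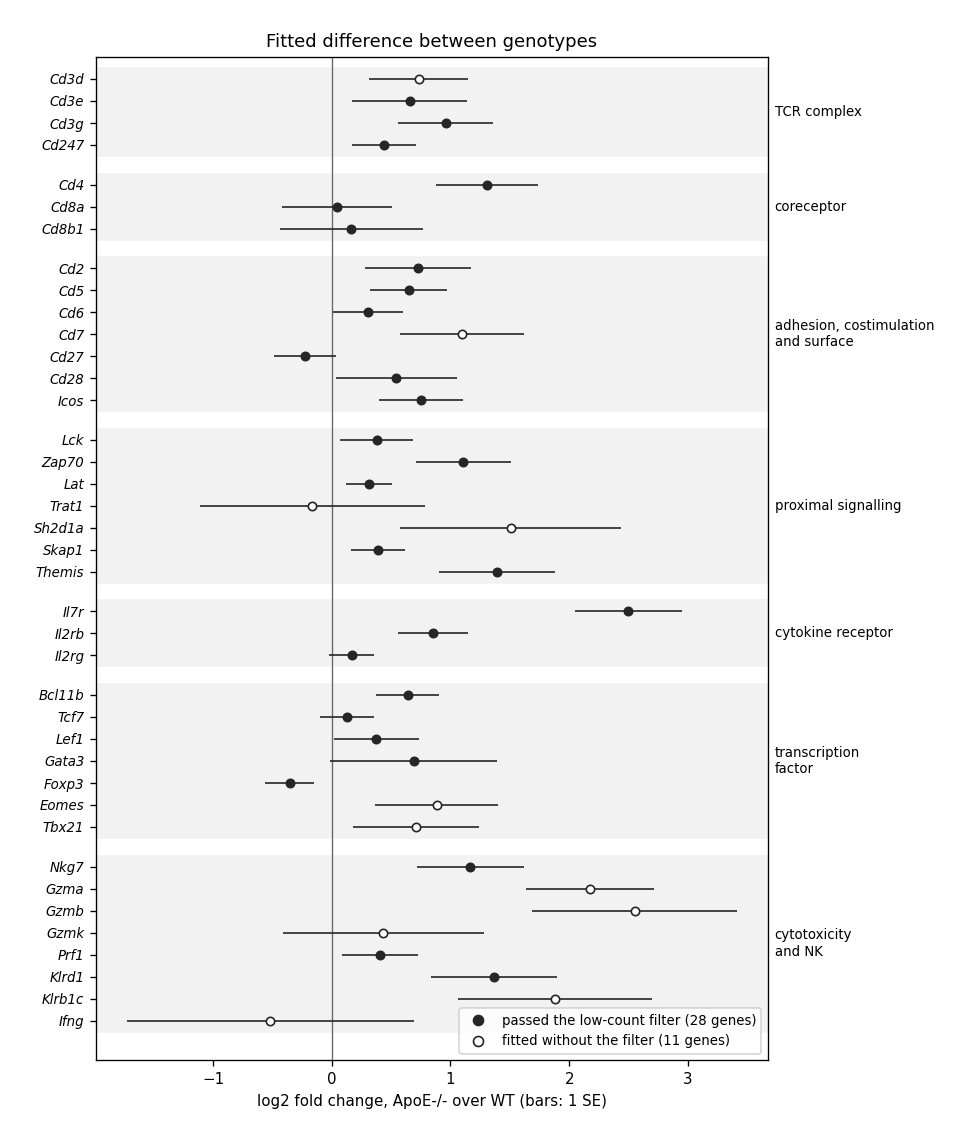
Fitted log2 fold change of ApoE-/- over WT for each gene, with bars of 1 standard error. Filled points are the 28 genes that passed the low-count filter and open points the 11 fitted without it, and 35 of the 39 points lie to the right of 0.

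Upstream sequences are shown for 5 genes, so that genes with separated genotypes can be read beside a T cell marker that overlapped. They are the 4 of the 6 separated genes that have an entry in the RefSeq promoter table, and *Cd3e*, and they were chosen after their values were seen. The table (GRCm38.p6) held 28 of the 39 genes. Shown is the part of the 250 bases before the RefSeq start that lies outside annotated exons of the gene, 5′ to 3′ on the gene's strand, with capitals for exact matches, on either strand, to 3 words: AGGAAG or its reverse complement CTTCCT, the core bound by ETS factors, TGTGGT or ACCACA, the core bound by RUNX factors, and AGGTGTG or CACACCT, a core of T-box factors.
Il7r: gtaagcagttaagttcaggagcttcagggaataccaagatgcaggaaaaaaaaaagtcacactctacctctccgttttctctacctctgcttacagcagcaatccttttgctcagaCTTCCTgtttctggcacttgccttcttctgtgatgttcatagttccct
Themis: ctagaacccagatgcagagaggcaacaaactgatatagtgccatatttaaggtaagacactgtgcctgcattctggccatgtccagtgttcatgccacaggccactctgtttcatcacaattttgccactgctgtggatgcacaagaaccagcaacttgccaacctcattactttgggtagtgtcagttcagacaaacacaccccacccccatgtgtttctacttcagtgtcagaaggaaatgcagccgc
Nkg7: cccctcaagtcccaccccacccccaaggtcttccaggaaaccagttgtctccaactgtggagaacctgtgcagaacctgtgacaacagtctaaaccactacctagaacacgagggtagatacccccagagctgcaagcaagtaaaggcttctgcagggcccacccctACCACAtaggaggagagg
Gzma: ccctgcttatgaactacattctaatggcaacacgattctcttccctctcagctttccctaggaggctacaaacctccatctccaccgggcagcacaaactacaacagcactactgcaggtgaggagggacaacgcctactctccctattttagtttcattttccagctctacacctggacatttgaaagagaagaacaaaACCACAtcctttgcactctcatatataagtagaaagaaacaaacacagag
Cd3e: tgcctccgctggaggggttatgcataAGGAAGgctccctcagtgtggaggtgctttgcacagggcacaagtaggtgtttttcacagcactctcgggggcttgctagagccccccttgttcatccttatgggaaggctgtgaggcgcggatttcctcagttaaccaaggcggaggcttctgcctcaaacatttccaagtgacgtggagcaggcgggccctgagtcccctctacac
The *Il7r* stretch lies at chr15:9529877-9530040 on the minus strand and holds 1 ETS word, 48 bases before the RefSeq start. It lies inside the annotated gene, between an annotated exon farther upstream and that start. The 50 bases after the *Il7r* start shared a run of only 10 bases with annotated transcripts of the gene. For the other genes shown this run was 46 to 50 bases, so the *Il7r* start was not matched by those transcripts. The *Nkg7* stretch, at chr7:43436888-43437072 on the plus strand, and the *Gzma* stretch, at chr13:113100982-113101231 on the minus strand, each hold 1 RUNX word, the former 83 and the latter 50 bases before the start. The *Cd3e* stretch, at chr9:45009628-45009861 on the minus strand, holds 1 ETS word, and the *Themis* stretch, at chr10:28668110-28668359 on the plus strand, none of the 3 words. Over the full 250 bases, the ETS word was present in 13 of the 28 genes, the RUNX word in 8 and the T-box word in 3, where 29.5%, 14% and 5.1% of all 32851 RefSeq windows of this length held them. A match describes letters and is not a site of binding.

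Transcripts of the TCR complex had higher mean levels in ApoE-/- aortas, by amounts that did not pass the test for any of the 4 chains. *Cd3e*, which encodes the epsilon chain and defines T cells, had 24, 12, 21 and 21 pairs in the ApoE-/- libraries and 11, 16, 2 and 15 in the WT libraries. In CPM this was 0.974, 0.525, 0.915 and 0.911 against 0.505, 0.749, 0.111 and 0.718. The genotypes overlapped, since ApoE-/- replicate 2 lay below 2 WT aortas, and WT replicate 3 was under the limit of detection. The log2 fold change of *Cd3e* was 0.66 (0.48 SE, adjusted p = 0.734 in edgeR), and 0.34 without WT replicate 3. *Cd3g*, the gamma chain, had 0.893, 0.787, 0.392 and 1.43 CPM in ApoE-/- aortas and 0.505, 0.515, 0.332 and 0.431 CPM in WT aortas. Of the ApoE-/- values 3 were above every WT value (log2 fold change 0.96, SE 0.40, edgeR adjusted p = 0.399, and 0.62 on the log2 scale without ApoE-/- replicate 4). *Cd3d*, the delta chain, stayed under the filter with 52 pairs in the ApoE-/- libraries together and 27 in the WT libraries. It had 0.731, 0.219, 0.741 and 0.521 CPM against 0.275, 0.328, 0.332 and 0.383 CPM, and ApoE-/- replicate 2 was the lowest of the 8. *Cd247*, the zeta chain, which T and NK cells share, was the most abundant of the 4 per kilobase of exon, at 0.751 CPM per kb in ApoE-/- and 0.554 CPM per kb in WT aortas. Its level was 5.60, 2.76, 3.88 and 3.78 CPM against 3.99, 2.67, 2.66 and 2.49 CPM, with WT replicate 1 above 3 ApoE-/- aortas (log2 fold change 0.44, SE 0.27, edgeR adjusted p = 0.650). Without ApoE-/- replicate 1 the log2 fold change of *Cd247* was 0.23. Exons of *Cd247* overlap those of *Gm16565* on the same strand, and *Cd3e* overlaps *Gm48719* on the opposite strand.

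Of the coreceptors, *Cd4* had higher values in ApoE-/- aortas while *Cd8a* and *Cd8b1* had fitted values that changed sign with the mice used. *Cd4*, the coreceptor of helper T cells and also carried by some macrophages and dendritic cells, had 2.27, 1.49, 2.79 and 5.03 CPM in ApoE-/- aortas and 1.33, 0.983, 0.665 and 1.68 CPM in WT aortas. Only ApoE-/- replicate 2 fell within the WT range. The log2 fold change of *Cd4* was 1.31 (SE 0.43, unadjusted p = 0.016, edgeR adjusted p = 0.259). *Cd8b1*, the beta chain of CD8 and a marker of cytotoxic T cells, had 0.731, 0.0875, 0.653 and 0.304 CPM against 0.597, 0.468, 0.222 and 0.287 CPM, so that the lowest and the highest aorta were both ApoE-/- (log2 fold change 0.17, SE 0.60, edgeR adjusted p = 0.957). *Cd8a*, the alpha chain, ranged from 0.521 to 1.66 CPM in ApoE-/- and from 0.443 to 1.29 CPM in WT aortas. Its log2 fold change was 0.04 (SE 0.46) and turned negative under several alternatives, among them upper-quartile scaling, limma-voom and leaving out ApoE-/- replicate 1, where it was −0.36. That of *Cd8b1* turned negative too with limma-voom and without ApoE-/- replicate 1, at −0.10 and −0.19. The highest values with 1 mouse left out were 0.25 for *Cd8a*, without ApoE-/- replicate 4, and 0.50 for *Cd8b1*, without ApoE-/- replicate 2.

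The log2 ratio of *Cd8a* to *Cd4* within each aorta was −0.43, −1.26, −1.29 and −3.07 in ApoE-/- mice and −0.05, −0.06, −0.50 and −0.63 in WT mice. Its mean was −1.51 ± 1.11 (SD, n = 4) against −0.31 ± 0.30, a difference of −1.20, and ApoE-/- replicate 1 lay within the WT range (two-sided exact permutation test, p = 0.0857, 0.256 after Benjamini-Hochberg adjustment over 3 ratios). ApoE-/- replicate 4, at −3.07, lay farthest from the WT values. The log2 ratio of *Cd3e* to *Ptprc*, the CD45 transcript carried by all leukocytes, was −6.30 ± 0.41 in ApoE-/- and −5.59 ± 0.80 in WT aortas, a difference of −0.71 (n = 4 each, exact permutation test, p = 0.171, adjusted 0.256). WT replicate 3, with 2 *Cd3e* pairs, had the lowest ratio of the 8, at −6.73. The other WT aortas, at −5.57 to −4.99, lay above all ApoE-/- aortas, at −6.68 to −5.79. The log2 ratio of *Nkg7* to *Cd3e* was −0.34 ± 0.21 against −0.68 ± 1.07, a difference of 0.34 (n = 4 each, exact permutation test, p = 0.629, adjusted 0.629). This difference changed sign without WT replicate 4, whose ratio was −2.11. With 4 mice against 4, the smallest p this test allows is 0.0286 before adjustment. After adjustment over 3 ratios, 1 ratio separated alone could not get below 0.05. None of the 3 ratios passed, which does not show that the genotypes were alike.

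**Figure D3:**
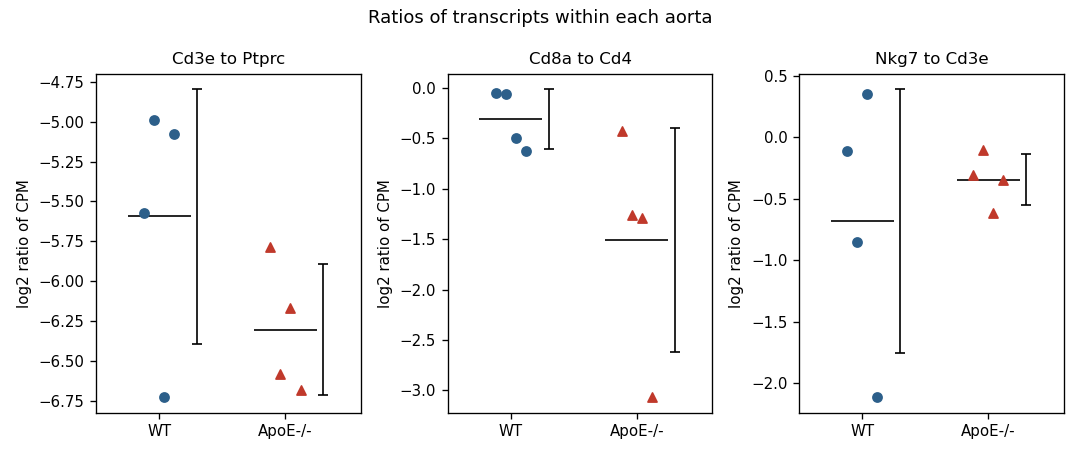
Log2 ratios of CPM (prior count 2) of 3 pairs of transcripts within each aorta, with the genotype mean as a line and the SD as a bar beside it (n = 4). The ApoE-/- aortas spread from −3.07 to −0.43 for Cd8a to Cd4, while the WT aortas lie between −0.63 and −0.05.

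Of the 7 surface molecules of T cells, none passed the test, and 6 had positive values. *Icos*, the inducible costimulator of activated and helper T cells, had 0.852, 0.831, 0.697 and 0.651 CPM in ApoE-/- aortas against 0.780, 0.328, 0.388 and 0.287 CPM in WT aortas. WT replicate 1 reached the ApoE-/- range and the other WT aortas lay below it (log2 fold change 0.75, SE 0.35, edgeR adjusted p = 0.489). Without WT replicate 1 the log2 fold change of *Icos* was 1.17. *Cd5*, a receptor that dampens TCR signalling, had 1.87, 3.15, 3.70 and 1.65 CPM against 1.93, 1.59, 1.94 and 1.15 CPM. ApoE-/- replicates 2 and 3 were above all WT aortas and the others within their range (log2 fold change 0.65, SE 0.32, edgeR adjusted p = 0.530), and without ApoE-/- replicate 3 that of *Cd5* was 0.43. *Cd2*, an adhesion receptor, the costimulator *Cd28* and *Cd6*, a relative of *Cd5*, had log2 fold changes of 0.73, 0.54 and 0.30, with overlapping genotypes. *Cd2* went down to 0.47 without ApoE-/- replicate 4, *Cd28* to 0.24 and *Cd6* to 0.17 without ApoE-/- replicate 3, and *Cd28* went up to 0.88 without ApoE-/- replicate 2 and *Cd6* to 0.47 without ApoE-/- replicate 1. *Cd7*, under the filter with 25 against 10 pairs, ranged from 0.174 to 0.434 CPM in ApoE-/- and from 0.0479 to 0.187 CPM in WT aortas, with a log2 fold change of 1.10 in the fit without a filter (0.52 SE, edgeR adjusted p = 0.557) and a pooled ratio of 2.20 (95% exact interval 1.02 to 5.12, from counting error only). *Cd27*, a costimulatory receptor of the TNF receptor family found on naive and memory T cells and on some B cells, had lower values in ApoE-/- aortas, with 2.84, 2.62, 2.61 and 1.56 CPM against 3.03, 3.09, 3.21 and 1.96 CPM (log2 fold change −0.23, SE 0.26, edgeR adjusted p = 0.826). For *Cd27* this was −0.07 without ApoE-/- replicate 4 and −0.37 without WT replicate 4.

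In proximal TCR signalling, *Themis* and *Zap70* had the smallest p-values, and all 5 genes that passed the filter had positive fitted values. *Themis*, which acts in TCR signalling during thymic selection, had 1.22, 0.656, 0.566 and 0.868 CPM in ApoE-/- aortas and 0.184, 0.562, 0.111 and 0.383 CPM in WT aortas. The genotypes did not overlap, although ApoE-/- replicate 3 with 13 pairs was only just above WT replicate 2 with 12 pairs. Its log2 fold change was 1.39 (SE 0.49, unadjusted p = 0.0211, edgeR adjusted p = 0.294). *Zap70*, the kinase recruited to phosphorylated CD3 and zeta chains, had 1.18, 0.612, 0.436 and 0.911 CPM against 0.459, 0.468, 0.222 and 0.287 CPM. ApoE-/- replicate 3 lay within the WT range (log2 fold change 1.11, SE 0.40, edgeR adjusted p = 0.311). The adaptors *Lat* and *Skap1* and the kinase *Lck* had log2 fold changes of 0.31, 0.39 and 0.38, and of 0.36, 0.24 and 0.24 without ApoE-/- replicate 1. Of the genes under the filter, *Sh2d1a*, the adaptor SAP of T and NK cells, had 14 pairs in the ApoE-/- libraries and 4 in the WT libraries, and *Trat1*, a TCR-associated adaptor, had 7 and 7.

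The smallest p among the 39 genes was that of *Il7r*, which encodes the alpha chain of the interleukin-7 receptor, a survival receptor of naive and memory T cells that innate lymphoid cells also carry (ENSMUSG00000003882.5, chr15:9505788-9530176 in GRCm38, minus strand). *Il7r* had 126, 221, 390 and 490 pairs in ApoE-/- libraries and 44, 66, 30 and 54 pairs in WT libraries. In CPM this was 5.11, 9.66, 17.0 and 21.3 against 2.02, 3.09, 1.66 and 2.59, so that the lowest ApoE-/- aorta was above the highest WT aorta. The mean was 13.3 ± 7.24 CPM (SD, n = 4) against 2.34 ± 0.628 CPM, with a log2 fold change of 2.50 (SE 0.45). Its edgeR adjusted p was 0.0592, above the threshold, while DESeq2 gave a log2 fold change of 2.49 with an adjusted p of 9.24e-06. In limma-voom the adjusted p was 0.132. When each mouse was left out in turn, the log2 fold change stayed between 2.17 and 2.77 and the edgeR adjusted p ran from 0.00713, without ApoE-/- replicate 1, to 0.203. The 4 ApoE-/- aortas had the same order for *Il7r* as for the summed macrophage genes, at 489, 830, 1046 and 2063 CPM, and for the CD45 gene *Ptprc*, at 58.7, 58.9, 72.3 and 103 CPM. This is a description over 4 libraries, and the part of other leukocytes in the *Il7r* level was not tested.

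The other chains that pair in these receptors varied less. *Il2rb*, the beta chain shared by the interleukin-2 and interleukin-15 receptors of T and NK cells, had 5.68, 2.76, 4.40 and 2.78 CPM in ApoE-/- aortas and 2.20, 1.64, 2.60 and 2.20 CPM in WT aortas. The genotypes did not overlap, and 2 ApoE-/- aortas lay just above the highest WT aorta (log2 fold change 0.85, SE 0.29, unadjusted p = 0.0191, edgeR adjusted p = 0.279). *Il2rg*, the common gamma chain that pairs with *Il7r* and *Il2rb* and is carried by most lymphocytes, had 2.53 to 3.73 CPM against 2.55 to 2.87 CPM, with a log2 fold change of 0.17 (0.19 SE, adjusted p = 0.824 in edgeR), and of 0.05 without ApoE-/- replicate 4. Per kilobase of exon, *Il7r* ranked 8 among the 39 genes in WT aortas, at 0.502 CPM per kb, and ranked 1 in ApoE-/- aortas, at 2.84 CPM per kb. *Il2rg* ranked 3 in both genotypes, at 1.13 CPM per kb in WT and 1.27 CPM per kb in ApoE-/- aortas. Exons of *Il2rg* overlap *Gm20489* on the same strand.

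Among the transcription factors, none passed the test, and *Gata3* was decided by 1 library. *Bcl11b*, which keeps T cells in their lineage and is also used outside the immune system, had 1.10, 0.656, 1.22 and 1.04 CPM in ApoE-/- aortas and 0.643, 0.702, 0.499 and 0.718 CPM in WT aortas. ApoE-/- replicate 2 was within the WT range and the others above it (log2 fold change 0.64, SE 0.27, unadjusted p = 0.042, edgeR adjusted p = 0.399). *Foxp3*, the factor of regulatory T cells, had 2.56, 2.71, 3.31 and 2.21 CPM against 3.08, 3.74, 4.10 and 2.87 CPM, with overlap and a log2 fold change of −0.35 (0.21 SE, adjusted p = 0.626 in edgeR). Its level per kilobase was 0.753 CPM per kb in WT aortas, above the 0.128 CPM per kb of *Cd3e*. Exons of *Foxp3* overlap *Flicr* on the same strand and *Ppp1r3f*, *Gm36995* and *Ccdc22* on the opposite strand, and how pairs in these overlaps were counted was not tested. *Tcf7* and *Lef1*, factors of the Wnt pathway that mark naive T cells, had log2 fold changes of 0.13 and 0.37, and leaving out 1 mouse moved that of *Tcf7* between −0.05, without ApoE-/- replicate 3, and 0.24, without ApoE-/- replicate 2, and that of *Lef1* between 0.17, without ApoE-/- replicate 1, and 0.68, without WT replicate 2. *Tbx21*, the T-bet gene of type 1 helper T cells and NK cells, had 47 pairs in ApoE-/- and 25 in WT libraries, and *Eomes*, its relative in cytotoxic cells, had 13 and 6, both under the filter.

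*Gata3*, the factor of type 2 helper T cells, is also made in sympathetic neurons. It had 22.9 CPM in ApoE-/- replicate 1, against 3.15, 5.14 and 2.08 CPM in the other ApoE-/- aortas and 4.82, 6.65, 4.21 and 4.98 CPM in WT aortas. The log2 fold change was 0.69 (0.71 SE, adjusted p = 0.810 in edgeR) with all mice and −0.57 without ApoE-/- replicate 1, the library with 5703 CPM of sympathetic neuron genes. The part of these neurons in the *Gata3* level was not tested. Exons of *Gata3* overlap 9230102O04Rik on the same strand and Gm13256 on the opposite strand.

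Genes of cytotoxicity and NK cells had higher mean levels in ApoE-/- aortas except *Ifng*, on few read pairs, and none passed the test. *Nkg7*, a membrane protein of cytotoxic granules, had 19, 11, 13 and 16 pairs in the ApoE-/- libraries and 10, 8, 3 and 2 in the WT libraries. In CPM this was 0.771, 0.481, 0.566 and 0.694 against 0.459, 0.374, 0.166 and 0.0957, without overlap, although ApoE-/- replicate 2 was close to WT replicate 1. The log2 fold change of *Nkg7* was 1.17 (SE 0.45, unadjusted p = 0.0321, edgeR adjusted p = 0.360), and between 0.89 and 1.54 when each mouse was left out. *Klrd1*, which encodes the CD94 chain of NK receptors, had 0.690, 0.525, 0.566 and 1.22 CPM against 0.367, 0.234, 0.0554 and 0.479 CPM, also without overlap (log2 fold change 1.36, SE 0.53, unadjusted p = 0.0326, edgeR adjusted p = 0.362). *Prf1*, the pore-forming perforin, had a log2 fold change of 0.40 (0.32 SE, adjusted p = 0.757 in edgeR), and WT replicate 1 with 1.10 CPM was above 3 of the 4 ApoE-/- aortas. Without WT replicate 1 the value of *Prf1* was 0.71 and without WT replicate 2 it was 0.22.

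Granzyme transcripts stayed under the filter, and those named here were chosen after their values were seen. *Gzma*, granzyme A, had 12, 8, 3 and 10 pairs in the ApoE-/- libraries and 2, 1, 1 and 2 in the WT libraries. All 4 ApoE-/- libraries were above the WT libraries, of which none had more than 3 pairs. The pooled ratio of normalized levels was 4.83 (95% exact interval 2.00 to 14.1, from counting error only). *Gzmb*, granzyme B, had 15, 2, 12 and 20 pairs against 5, 1, 0 and 1, a pooled ratio of 6.15 (2.77 to 16.1), with ApoE-/- replicate 2 within the WT range. *Klrb1c*, the NK1.1 antigen of C57BL/6 NK cells, had 14, 5, 7 and 9 pairs against 5, 0, 0 and 3, a ratio of 3.84 (1.75 to 9.59), and ApoE-/- replicate 2 equalled WT replicate 1 in pairs. Exons of *Klrb1c* overlap Gm44511 on the same strand. Without a filter, the unadjusted p was 0.00301 for *Gzma*, 0.0164 for *Gzmb* and 0.0469 for *Klrb1c*, and edgeR's adjusted p was 0.132, 0.307 and 0.486. These intervals leave out the spread between mice. WT replicate 1 held 5 of the 7 WT pairs of *Gzmb* and 5 of the 8 of *Klrb1c*. *Gzmk*, granzyme K, had 8 against 5 pairs (ratio 1.41, 0.405 to 5.46), and 5 of the 8 were in ApoE-/- replicate 1. *Ifng*, interferon gamma, had 3 against 4 pairs, so that no difference in *Ifng* was detectable at this depth.

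**Figure D4:**
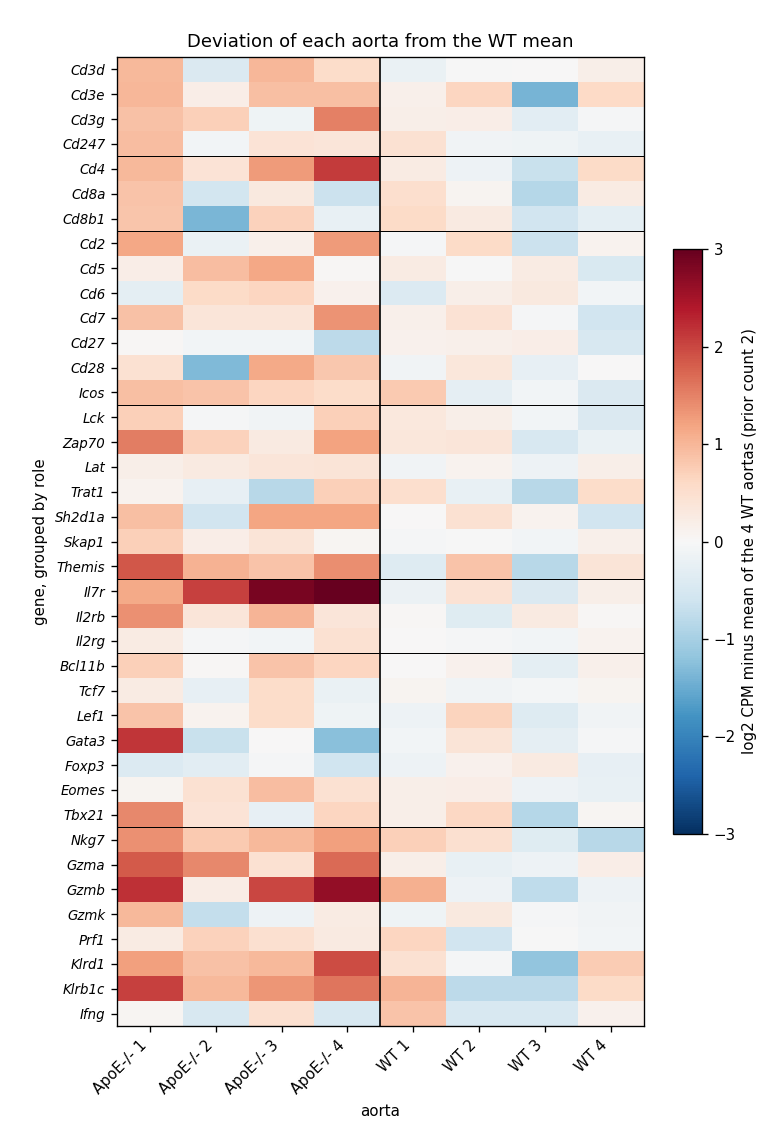
Log2 CPM of each gene in each aorta minus the mean of the 4 WT aortas (prior count 2), with colours cut off at −3 and 3 and roles parted by lines. ApoE-/- 1 is above the WT mean for most genes, with a median of 0.86 over the 28 tested genes, and ApoE-/- 2 is nearest to it, with a median of 0.20.

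The ApoE-/- mice differed among themselves. ApoE-/- replicate 1 had the highest value of the 8 aortas for 12 of the 28 tested genes, replicate 4 for 8, replicate 3 for 5 and replicate 2 for 1. WT replicate 3, the library with the fewest pairs on genes, had the lowest value for 13. In at least 1 of the 8 edgeR fits without 1 mouse, 18 of the 28 log2 fold changes moved by over 1.5 times or changed sign, and 4 changed sign (*Cd8a*, *Cd8b1*, *Tcf7* and *Gata3*). The 10 that did neither were those of *Cd4*, *Zap70*, *Lat*, *Themis*, *Il7r*, *Il2rb*, *Bcl11b*, *Foxp3*, *Nkg7* and *Klrd1*. The median deviation of the 28 genes from the WT mean was 0.86, 0.20, 0.56 and 0.43 on the log2 scale in the ApoE-/- aortas and 0.10, 0.14, −0.25 and −0.0027 in the WT aortas. Cytotoxicity and NK genes summed to 2.80 to 4.51 CPM against 1.00 to 2.66 CPM, without overlap, and proximal signalling genes to 4.55 to 6.98 against 3.05 to 4.26 CPM, also without overlap. Surface molecules summed to 8.68 to 11.5 against 5.98 to 8.47 CPM. TCR complex genes, at 4.29 to 8.20 against 3.43 to 5.28 CPM, coreceptors, at 2.14 to 5.86 against 1.33 to 3.21 CPM, and transcription factors, at 8.85 to 32.0 against 12.02 to 15.2 CPM, overlapped. Cytokine receptors summed to 14.0 to 27.8 against 6.81 to 7.66 CPM, without overlap.

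Other genes of T and NK cells were read from a list of 42 that are not among the 39. Of these, 37 were in the files and 31 were tested, with 26 positive and 5 negative fitted values and a median of 0.69. Their summed level ran the other way, with overlap, at 481 to 705 CPM in ApoE-/- and 594 to 901 CPM in WT aortas. Its most abundant genes were *Zbtb16*, a factor of innate-like T cells also made outside the immune system, at 96.1 to 289 CPM against 232 to 522 CPM, and *Plcg1*, a phospholipase of receptor signalling in many cell types, at 161 to 195 CPM against 186 to 224 CPM. edgeR called 1 of them, *Vav1*, and DESeq2 called 4, *Vav1*, *Runx3*, *Il18rap* and *Lcp2*, where the shares over all genes were 0.371% and 3.12%. An unadjusted p under 0.05 was reached by 16, all higher (7.19% over all genes), and 7 were separated upwards (5.41%). *Vav1*, an exchange factor of TCR signalling that other blood cells also make, rose in ApoE-/- aortas, with 8.40, 12.2, 15.9 and 21.5 CPM against 4.73, 3.98, 2.88 and 3.54 CPM in WT aortas (log2 fold change 1.94, SE 0.30, edgeR adjusted p = 0.0462). No gene of this list was called with upper-quartile factors, limma-voom or the replicate block, nor in 7 of the 8 edgeR fits that left out 1 mouse, all but the one without ApoE-/- replicate 1, which called 5. *Runx3*, a factor of cytotoxic T and NK cells, had 1.62 to 3.44 CPM against 0.335 to 0.734 CPM (log2 fold change 2.10, SE 0.35, edgeR adjusted p = 0.0526). *Il18rap*, a chain of the interleukin-18 receptor, and *Lcp2*, the adaptor SLP-76, both had a log2 fold change of 1.31 (edgeR adjusted p = 0.0624 and 0.0652). The part of other leukocytes in the levels of *Runx3*, *Il18rap* and *Lcp2* was not tested. Genes with negative values included *Zbtb16*, at −0.72, *Plcg1*, at −0.18, and *Ctsw*, at −0.40, with edgeR adjusted p from 0.577 to 0.727.

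Markers of other leukocytes also had mostly positive values. Over all tested genes, edgeR called 0.371% as higher and 0.0929% as lower, and DESeq2 3.12% and 1.69%. All 9 pan-leukocyte genes had positive values, of which edgeR called 1 and DESeq2 7 as higher, with a median log2 fold change of 1.498 and a sum of 245 to 502 CPM against 118 to 161 CPM. *Ptprc* rose, with a log2 fold change of 1.498 (0.20 SE, adjusted p = 0.0380 in edgeR). Of the 39 T and NK genes fitted without a filter, 5 had a log2 fold change above that of *Ptprc* (*Il7r*, *Gzma*, *Gzmb*, *Klrb1c* and *Sh2d1a*) and 34 below it. All 10 macrophage genes were positive, and edgeR called 1 and DESeq2 6 as higher, with a sum of 489 to 2063 CPM against 303 to 425 CPM. Among them *Fcgr1* passed the test (log2 fold change 2.32, edgeR adjusted p = 0.0355), and *Cd68* did not (2.21, edgeR adjusted p = 0.0774). Of 9 tested B cell genes 8 were positive, of which edgeR called none and DESeq2 called *Cd22* and *Blk* (sum 14.7 to 33.8 against 6.70 to 10.9 CPM). Of 7 tested dendritic cell genes 5 were positive, and *Itgax*, the CD11c gene also made by macrophages, was called higher by both tools (log2 fold change 4.44, edgeR adjusted p = 0.0380, sum 72.9 to 127 against 81.6 to 96.5 CPM). DESeq2 also called *Clec9a*, of cross-presenting dendritic cells, as lower (edgeR log2 fold change −0.37). Of 6 tested genes of type 2 innate lymphoid and mast cells 5 were positive and neither tool called any (125 to 214 against 166 to 176 CPM). Without ApoE-/- replicate 3, or without any 1 of the 4 WT mice, edgeR called 0 genes of all tested as higher, so the calls of *Ptprc*, *Fcgr1* and *Itgax* were lost there. It called 1 gene as higher without ApoE-/- replicate 4 and 1 with the replicate block, while DESeq2 without 1 mouse called 291 to 871. The part of these cells in the levels of genes they share with T and NK cells was not tested.

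**Figure D5:**
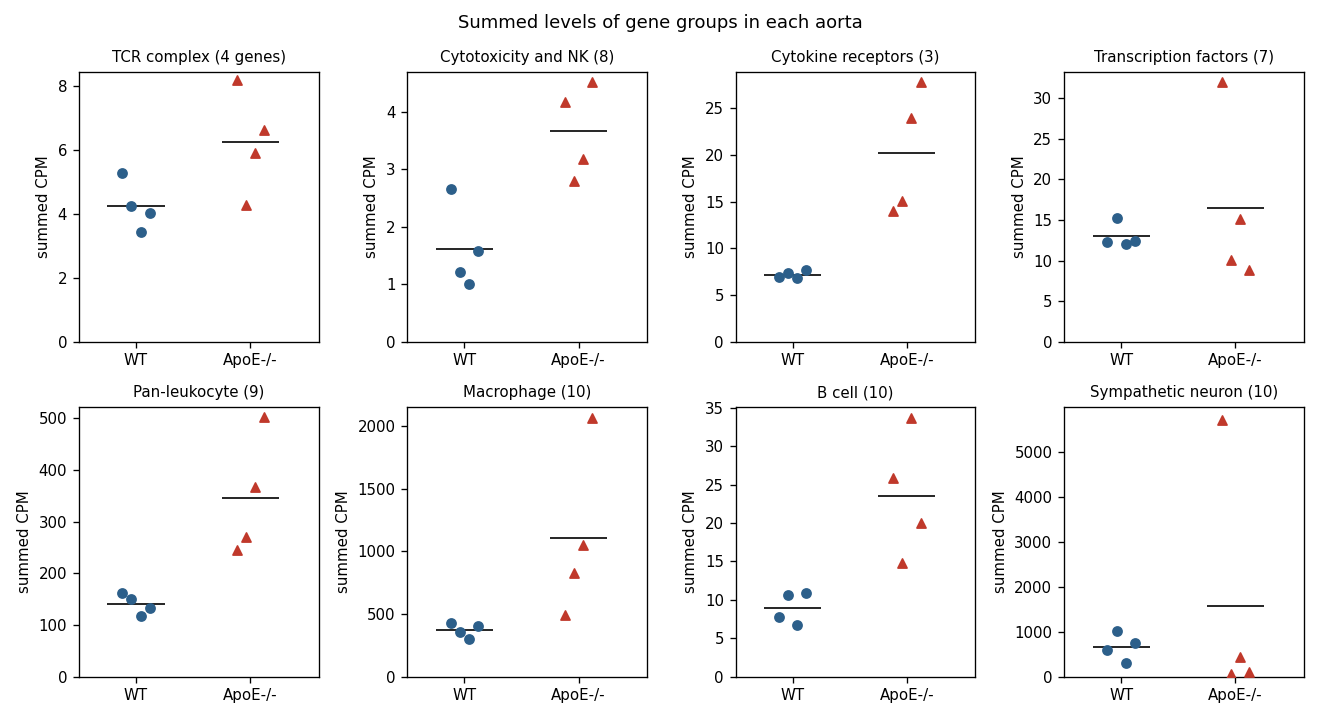
Summed CPM of 8 gene groups in each aorta, with the genotype mean as a line (4 mice each). Cytokine receptor, cytotoxicity and NK, pan-leukocyte, macrophage and B cell sums of the ApoE-/- aortas lie above all WT aortas, TCR complex sums overlap, and ApoE-/- 1 stands alone at 5703 CPM in sympathetic neuron genes and at 32.0 CPM in transcription factors.

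Most genes of a list that marks the thymus were near or under the limit of detection in most aortas. *Rag1* was listed at 0 in all 4 WT aortas and at no more than 0.0875 CPM in ApoE-/- aortas, and *Ptcra* and *Foxn1* stayed at or under 0.0479 CPM in all 8. *Rag2* reached 0.218 CPM in ApoE-/- and 0.229 CPM in WT aortas, *Dntt* 0.203 and 0.187 CPM, and *Psmb11* 0.131 and 0.0479 CPM. *Arpp21* had 1.10 CPM in ApoE-/- replicate 1 and 0.468 CPM in WT replicate 2, and at most 0.218 CPM in the others. The 2 tested genes of that list, *Ccr9* and *Cd1d1*, which other cells also make, had log2 fold changes of 0.01 and −0.01. *Cd3e*, taken as the marker of T cells, and *Nkg7*, taken as that of cytotoxic cells, were both detected in most aortas. Both are among the 39 genes, so this is no separate check of the labels. *Cd3e* had over 3 pairs in 7 of 8 libraries and *Nkg7* in 6 of 8. Genes of the wall and of heart muscle had mostly negative values. Of 8 endothelial genes 7 had negative values, and of 8 smooth muscle genes 7. ApoE-/- replicate 1 had the lowest smooth muscle sum of the 8 aortas, at 5263 CPM. The part of this library in the smooth muscle values was not tested. All 8 cardiac muscle genes had negative values (sum 160 to 342 against 414 to 717 CPM, median log2 fold change −2.61). *Ryr2* made up most of the ApoE-/- sum, at 123 to 311 CPM against 192 to 335 CPM in WT aortas, with a log2 fold change of −0.02. edgeR called none of these 24, while DESeq2 called 5 cardiac muscle and 3 endothelial genes as lower, beside 1.69% of all tested genes. All ApoE-/- values lay below all WT values for 7 cardiac muscle and 3 endothelial genes, where 3.3% of all tested genes were separated downwards. Their part in the T and NK results was not tested.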

How the data were processed

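Total RNA of whole aortas from 4 ApoE-/- and 4 WT mice was ribodepleted and sequenced with strand. The authors deposited 1 file per mouse with raw counts of read pairs per gene without normalization. The submitters' processing notes name TopHat2, HTSeq and GRCm38/mm10, with versions not given in the sources used here. Totals of pairs without a gene were left out of library sizes. Of the 21859 gene identifiers, 21817 matched GENCODE M21 (GRCm38), which gave coordinates and exon lengths, and 42 did not.

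Groups followed the sample labels. Counts were analysed in R 4.3.3 with edgeR 4.0.16 (filterByExpr, TMM, quasi-likelihood F test with robust estimation, genotype as the only factor, two-sided), with Benjamini-Hochberg adjustment over the 15077 genes tested and a threshold of 0.05. The study names DESeq2, so DESeq2 1.42.0 was run as an alternative, as were limma-voom (limma 3.58.1), other normalizations and filters, a replicate block, and leaving out each mouse. Scripts were tested on simulated data. Ratios of log2 CPM (prior count 2) were compared by exact permutation over 70 assignments. Intervals and floors cover counting error only.

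The members and lists were chosen with earlier results of these data known, and the sympathetic neuron list after seeing the data. Every member could be named. Values per mouse are given for the TCR complex, *Cd3e*, *Nkg7*, members called by either tool and the 2 smallest p in each role, while of the pathway list the 4 smallest p in each direction were named, of which 1 gene is not reported here. T cell receptor constant region genes were not analysed here. No file was pooled, and no 2 libraries of the same genotype agreed within sampling noise.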

Additional observations from a re-analysis of the deposited data

Results flagged for a closer look

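Dixon's ratio, the gap between an extreme aorta and its nearest neighbour over the whole range, was computed for the 28 tested genes and the 3 ratios in each genotype. Of 62 groups of 4 aortas, 4 exceeded the 95% critical value, where chance gives about 1 in 20, or 3.1. *Cd3e* was low in ApoE-/- replicate 2 (ratio 0.861), at 0.525 CPM against 0.911 to 0.974 CPM in the other ApoE-/- aortas. *Cd247* was high in WT replicate 1 (ratio 0.881), at 3.99 CPM against 2.49 to 2.67 CPM. *Cd27* was low in WT replicate 4 (ratio 0.853), at 1.96 CPM against 3.03 to 3.21 CPM. *Gata3* was high in ApoE-/- replicate 1 (ratio 0.853), at 22.9 CPM against 2.08 to 5.14 CPM in the other ApoE-/- aortas.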

How the results depend on the processing

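Over all genes, edgeR called 70, DESeq2 725, limma-voom 29, the fit with a replicate block 2, and the other scalings, filters and dispersion 63 to 74. Leaving out each mouse in turn, edgeR called 0 to 593 genes (593 without ApoE-/- replicate 1) and DESeq2 445 to 1562. Of the T and NK genes, edgeR called 0, DESeq2 1, and the fits without 1 mouse 0 to 1 in edgeR (*Il7r*, without ApoE-/- replicate 1) and 1 to 3 in DESeq2 (*Cd4*, *Gzmb* and *Il7r*, without ApoE-/- replicate 2). Of the other pathway genes, edgeR called 1, DESeq2 4, limma-voom, upper-quartile factors and the block 0 each, the filter at 1 CPM 2, and the fits without 1 mouse 0 to 5 in edgeR and 4 to 7 in DESeq2. The T and NK genes without overlap numbered 5 among those tested, 2 with the filter at 1 CPM and 5 to 11 without 1 mouse, where the share of all tested genes separated upwards was 5.41%, 5.38% and 6.32% to 9.87%. All were higher in ApoE-/- aortas except *Foxp3* without ApoE-/- replicate 3 and *Cd27* without WT replicate 4, which were separated downwards, as were 4.56% and 4.11% of all tested genes. The *Nkg7* to *Cd3e* difference ran from −0.14, without WT replicate 4, to 0.69. The median log2 fold change of the tested T and NK genes, 0.59, stayed between 0.39 and 0.75 in every fit run. The fits of DESeq2 without 1 mouse and the counts of separated genes under other settings were chosen after seeing the data. The causes of these differences were not tested.

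Same-numbered mice share only a number, and their deviations from the genotype means correlated at 0.06, −0.45, 0.32 and 0.16. With the replicate block, 2 genes were called over all, none of the T and NK genes, and their median was 0.44. *Il7r* then had a log2 fold change of 2.34 (edgeR adjusted p = 0.161). At a depth where 3 pairs equal up to 0.166 CPM, 11 of the 39 genes did not pass the low-count filter.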
